A study of Homo sapiens with 8 samples.

Results

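The 8 genes described here act in the uptake of low-density lipoprotein (LDL), in sterol sensing and in moving cholesterol through the cell: SREBF2, SCAP, INSIG2, MYLIP, STARD4, NPC1, NPC2 and ABCA1. They were taken by name, with earlier results of these data known, from a table of 86369 Ensembl identifiers, and each symbol matched 1 identifier. All 8 passed the filter on low counts and were among the 13840 genes tested. HepG2, an established human hepatocellular carcinoma line grown in medium with fetal bovine serum, was transfected by lipofection with a small interfering RNA (siRNA) directed at the RNA acetyltransferase NAT10 (siNAT10) or a negative control (siCtrl). RNA was taken 2 days later from 4 libraries per group, and replicates 1 and 2 of both groups were labelled batch 1 and replicates 3 and 4 batch 2. The sequence and number of the siRNAs are not given in the sources used here, and the labels do not say whether replicates came from separate cultures, so the p-values measure only the spread between these libraries.

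Cells take in cholesterol with LDL, which binds its receptor at the cell surface and is carried to lysosomes. There NPC2, a small soluble protein, hands the freed cholesterol to NPC1 in the lysosomal membrane, and carriers such as STARD4 move sterol on between membranes. In the endoplasmic reticulum SCAP escorts the transcription factor precursor SREBP2, the product of SREBF2, toward the Golgi when sterol is scarce, while INSIG2 holds the SCAP complex back when sterol is plentiful. Oxidised sterols activate the nuclear receptors LXR, which raise ABCA1, an exporter of cholesterol, and MYLIP, a ubiquitin ligase that marks the LDL receptor for destruction. The liver is the main site of LDL clearance, and liver-derived cells such as HepG2 are a common model of it.

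Libraries held between 9731718 and 27977110 counts, and the 2 shallowest were the siNAT10 libraries of batch 2. The knockdown was present in both batches: NAT10 stood at 44.7, 39.2, 77.8 and 48.9 CPM (counts per 1000000 of the scaled library size) in siCtrl replicates 1 to 4 and at 13.1, 12.2, 20.1 and 22.3 CPM in siNAT10, 31.6% of the siCtrl level in the fit. The 8 hepatocyte markers examined were all detected, with a summed level of 10034 to 10681 CPM in siCtrl and 8036 to 8830 CPM in siNAT10. The sum was carried mostly by ALB, TF and AFP. Of the 8 markers 6 lay below 0, with a median log2 fold change of -0.28. With an unadjusted p under 0.05 in edgeR, 5 were lower and 1 higher, against 8.24% and 7.46% of all tested genes. Transferrin (TF, -0.49) was the 1 called, while ALB (-0.37) and AFP (-0.28) were lower but not called. The 2 above 0 were FGB (0.37, 129.5% of siCtrl, not called) and HNF4A (0.09), and APOA1 was level with control (-0.0083). Of 8 markers of other liver cell types, 1 passed the filter, and their sum was 2.35 to 4.22 CPM over all libraries, with 2 (PTPRC and COL3A1) at 0 counts throughout. Of the tested genes 315 differed by siRNA at a Benjamini-Hochberg adjusted p under 0.05 in edgeR's quasi-likelihood test, 2.28% of those tested, with 0.816% higher and 1.46% lower in siNAT10. With library size alone in place of the scaling used here, 138 were higher and 149 lower, against 113 and 202. The count was 104 without siCtrl replicate 1, 132 without siCtrl replicate 2, and 134, 75 and 178 without siNAT10 replicates 1, 2 and 3. The part of the lower summed marker level in the results below was not tested. In bulk RNA fewer cells of a type and less RNA per cell cannot be told apart.

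The levels of the 8 genes spanned from NPC2, with a mean of 389.5 CPM over the 8 libraries, to MYLIP with 10.4 CPM. The libraries read the 3' ends of polyadenylated RNA, so a count does not grow with transcript length and levels were set beside each other between genes on that basis. How fully each 3' end was counted was not tested, since some genes of the synthesis list below were listed at or near 0. NPC2 was followed by SCAP at 226.8 CPM, SREBF2 at 148.9 CPM, INSIG2 at 146.1 CPM, NPC1 at 44.8 CPM, ABCA1 at 18.9 CPM and STARD4 at 10.5 CPM. The order of SREBF2 and INSIG2 held in 4 of 8 libraries and that of STARD4 and MYLIP in 5 of 8, so neither pair differed beyond its spread. Every other neighbouring pair kept its order in 8 of 8 libraries, although the full ranges of SCAP (174.7 to 262.5 CPM) and SREBF2 (111.2 to 182.3 CPM) met. The soluble lysosomal partner NPC2 exceeded its membrane partner NPC1 by 6.65 to 10.0 times in single libraries. The least precise members were MYLIP, with 87 to 263 counts in a library, and STARD4, with 106 to 365, against 3210 to 11870 for NPC2.

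**Figure D1:**
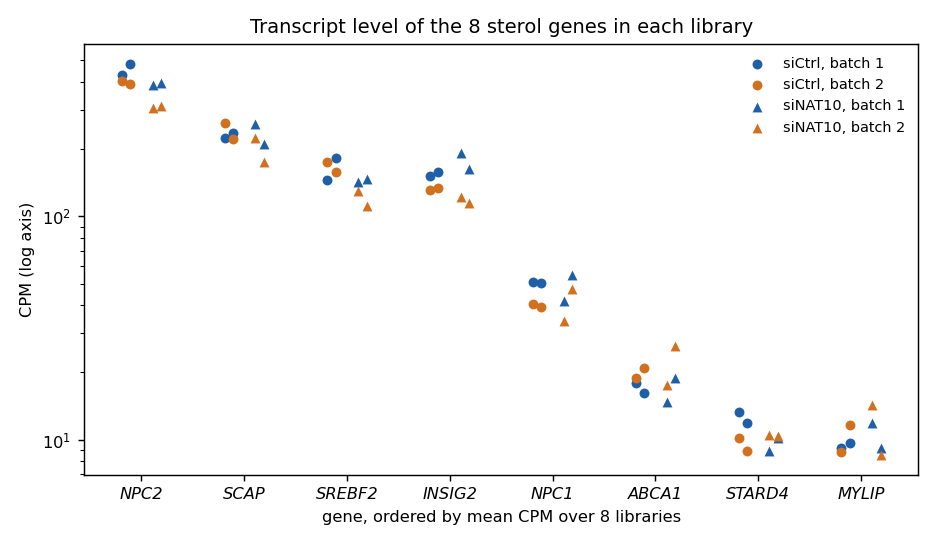
CPM of each gene (log axis) in each of the 8 libraries, circles for siCtrl and triangles for siNAT10, blue for batch 1 and orange for batch 2; horizontal offsets only separate the points. The genes fall from NPC2 (mean 389.5 CPM) to MYLIP (mean 10.4 CPM), and SREBF2 with INSIG2 and STARD4 with MYLIP lie at the same height.

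After knockdown of NAT10 the fitted levels of the 8 genes lay between 79.8% (SREBF2) and 112.6% (MYLIP) of control. Called were 0 of 8 (edgeR quasi-likelihood test with Benjamini-Hochberg adjustment over all tested genes). As 2.28% of all tested genes were called, this count is not read further. By unadjusted p under 0.05, 2 of 8 stood out, NPC2 and SREBF2, both lower in siNAT10. Over all tested genes 15.7% had an unadjusted p under 0.05, with 8.24% lower and 7.46% higher, so the members' count of 2 is not read further. DESeq2's Wald test, fitted to 27941 genes, called 1 member, NPC2, among 530 genes called in all. The limma-voom fit of 13840 genes called 0 members, among 329. The fitted log2 fold changes ran from -0.32 for SREBF2 to 0.17 for MYLIP, 3 above 0 and 5 below, with a median of -0.07 against -0.0024 over all tested genes. The lowest 95% interval bound of any member was 68.0% of the siCtrl level (SREBF2) and the highest 144.1% (MYLIP). Each interval is for 1 gene, is not adjusted for the 8 and measures only the spread between these libraries.

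**Figure D2:**
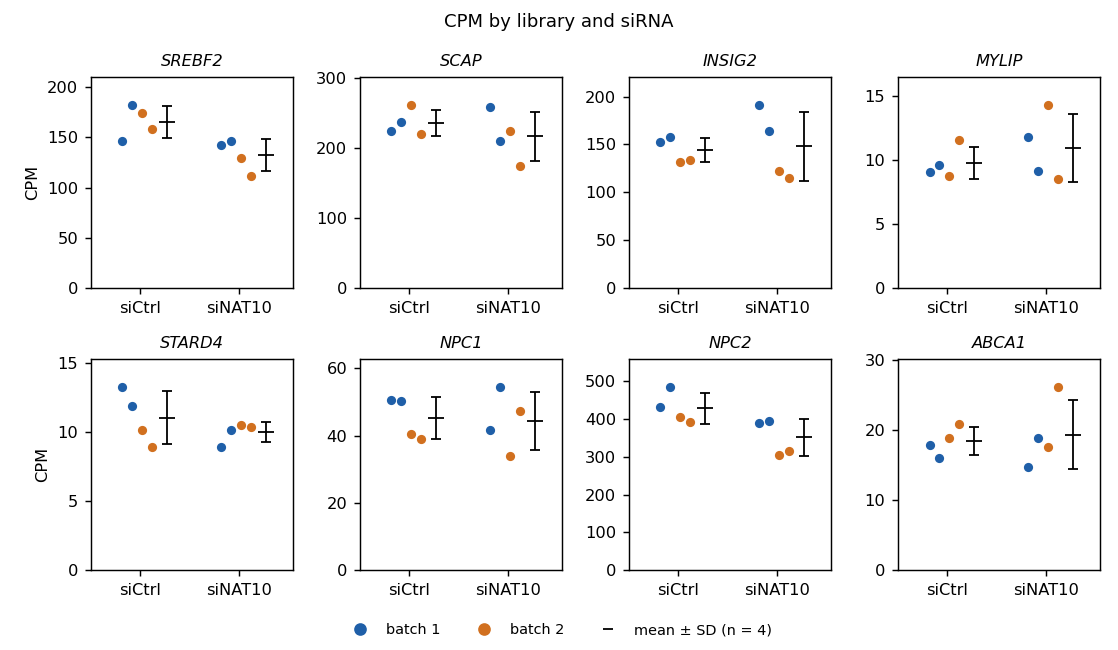
CPM of each gene in each library by siRNA, with points in replicate order, blue for batch 1 and orange for batch 2, and the black bar giving the mean ± SD of 4 libraries; each axis starts at 0. NPC2 is the gene in which every siNAT10 library lies below both siCtrl libraries of its batch, while SREBF2 misses this by 1 library.

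SREBF2 (ENSG00000198911; GRCh38 chromosome 22, 41833105 to 41907306, plus strand) encodes SREBP2, the transcription factor that turns on cholesterol synthesis and LDL uptake genes. It measured 146.4, 182.3, 174.5 and 158.1 CPM in siCtrl replicates 1 to 4 and 142.6, 146.5, 129.4 and 111.2 CPM in siNAT10. The siNAT10 libraries of batch 2 lay below both of their controls, and in batch 1 siNAT10 replicate 2 sat level with siCtrl replicate 1. The group means were 165.3 ± 16.2 and 132.4 ± 15.9 CPM (SD, n = 4 each). The fitted level was 79.8% of siCtrl, a log2 fold change of -0.32 (SE 0.11, 95% interval -0.56 to -0.09), and it was not called (edgeR adjusted p 0.14). Batch 1 alone gave -0.18 and batch 2 alone -0.46. Its relative SREBF1, the gene of the fatty-acid-directed factor SREBP1, had means of 67.1 (siCtrl) and 67.5 CPM (siNAT10), a difference of 0.014 on the log2 scale, and was not called. RAI1 overlaps the last exon of SREBF1 on the other strand. The strand setting is not given in the sources used here, so reads of SREBF1 and RAI1 may not have been told apart.

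The start of SREBF2 is shown because SREBP2 is known to act on its own gene. The window from RefSeq (GRCh38.p14, 250 bases before to 50 after the start, at chr22:41832855-41833154, plus strand) holds the sterol regulatory element letters TCACNCCAC at bases -133 to -125 from the start, and a CCAAT box, read as ATTGG, at -106 to -102. Both are in capitals.
SREBF2: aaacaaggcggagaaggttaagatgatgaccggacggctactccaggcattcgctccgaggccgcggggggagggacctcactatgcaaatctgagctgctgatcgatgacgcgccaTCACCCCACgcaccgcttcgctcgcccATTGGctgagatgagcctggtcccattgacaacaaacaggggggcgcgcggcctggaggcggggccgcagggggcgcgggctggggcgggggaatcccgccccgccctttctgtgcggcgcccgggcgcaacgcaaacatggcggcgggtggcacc
Both strands were searched in 35116 windows of this length. TCACNCCAC was found in 1.13% of them and in 1 of the 8 genes, SREBF2. CCAAT was found in 34.6% of the windows and in 4 of the 8 genes, SREBF2, MYLIP, STARD4 and NPC2. The E-box CACGTG was found in 7.26% of the windows and in SCAP and ABCA1. The motifs do not overlap in the SREBF2 window, and a match describes letters only.

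SREBF2 also carries the microRNA miR-33a in intron 16 of its canonical transcript of 19 exons (hairpin at chr22:41900944-41901012, plus strand), which is known to repress ABCA1 and NPC1. Poly(A)-primed 3' counts do not measure the mature microRNA, and it is shown with its matches in the same gene set because it ties SREBF2 to ABCA1 and NPC1 by sequence. In the mature sequence from RefSeq the seed, bases 2 to 8, is in capitals.
hsa-miR-33a-5p: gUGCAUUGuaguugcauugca
The same seed is found in hsa-miR-33b-5p (chr17:17813897-17813916, minus strand), which lies within the span of SREBF1. Matches to the seed are thus not particular to miR-33a or to SREBF2. The complement of the seed, CAATGCA, was searched in the 3' untranslated region (UTR) of the canonical GENCODE 44 transcript of each gene. It was found in 3 of the 8 genes, ABCA1 with 4 matches in 3309 bases, NPC1 with 1 in 760 bases and SCAP with 1 in 173 bases, and in 8.4% of 19550 such regions, whose median length was 1064 bases. In the windows below, at chr9:104784169-104784198, chr9:104784154-104784183, chr9:104782829-104782858, chr18:23531869-23531898 and chr3:47413793-47413822, all on the minus strand of GRCh38, the capitals mark the match. The remaining ABCA1 match begins at UTR base 140 and overlaps the one at base 135.
ABCA1 at UTR base 135: tactgtactgatactattCAATGCAatgca
ABCA1 at UTR base 150: attcaatgcaatgcaattCAATGCAatgaa
ABCA1 at UTR base 1475: ttttttttttaattgcaaCAATGCAaaagc
NPC1: cactctgtaaaggccaatCAATGCActgtc
SCAP: ggggtgctgtgtgggggcCAATGCActgaa
ABCA1, NPC1 and SCAP, the genes with a match, had log2 fold changes of 0.06, -0.02 and -0.12, and their values by library follow.

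SCAP and INSIG2, the escort and the anchor of SREBP2, were not called between the siRNAs. SCAP (ENSG00000114650; chromosome 3, 47413681 to 47477126, minus strand) measured 224.4, 237.3, 262.5 and 221.3 CPM in siCtrl replicates 1 to 4 and 259.1, 211.0, 224.5 and 174.7 CPM in siNAT10. The groups overlapped, with siNAT10 replicate 4 the lowest library of all. Its log2 fold change was -0.12 (SE 0.12, 95% interval -0.37 to 0.13, edgeR adjusted p 0.67). INSIG2 (ENSG00000125629; chromosome 2, 118088452 to 118110997, plus strand) measured 152.3, 158.0, 132.0 and 134.3 CPM in siCtrl and 191.5, 163.7, 122.2 and 115.1 CPM in siNAT10. In batch 1 both siNAT10 libraries were above their controls and in batch 2 both were below. The fitted log2 fold change over both batches was 0.016 with a 95% interval of -0.21 to 0.24 (edgeR adjusted p 0.96). Taken apart, the batches gave 0.20 and -0.16.

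NPC2 and NPC1 receive cholesterol in the lysosome. NPC2 (ENSG00000119655; chromosome 14, 74476192 to 74494177, minus strand) measured 431.5, 484.3, 405.8 and 390.3 CPM in siCtrl replicates 1 to 4 and 390.1, 394.8, 305.2 and 313.8 CPM in siNAT10. Each siNAT10 library lay below both siCtrl libraries of its batch, the 1 member of which this was true. Of all tested genes 14.7% had every siNAT10 library beyond both controls of its batch, and 7.9% had them below. The means were 428.0 ± 41.2 and 351.0 ± 48.0 CPM (SD, n = 4 each), and the fit gave 81.6% of siCtrl, a log2 fold change of -0.29 (SE 0.10, 95% interval -0.50 to -0.09). NPC2 was not called (edgeR adjusted p 0.13), but it was called by DESeq2 (adjusted p 0.038). Over all the alternatives its adjusted p ran from 0.038 to 0.70, and its log2 fold change stayed between -0.36 and -0.22. The hairpin gene MIR4709 lies within its last exon on the same strand.

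NPC1 (ENSG00000141458; chromosome 18, 23506184 to 23586506, minus strand), the membrane partner, measured 50.7, 50.4, 40.4 and 39.2 CPM in siCtrl and 41.8, 54.5, 34.03 and 47.2 CPM in siNAT10. In each batch 1 siNAT10 library was above both controls and 1 below both. The log2 fold change was -0.022 (SE 0.12, 95% interval -0.27 to 0.23, edgeR adjusted p 0.96). RMC1 overlaps the last exon of NPC1 on the other strand, and with the strand setting not given in the sources used here, reads of the 2 genes may not have been told apart. The NPC2 window is shown because NPC2 and SREBF2 had the lowest unadjusted p of the 8 genes. It lies at chr14:74493463-74493762 on the minus strand and holds 2 CCAAT boxes, read as ATTGG and given in capitals, and no TCACNCCAC. A second NPC2 start listed by RefSeq, whose window overlaps this one, holds neither motif.
NPC2: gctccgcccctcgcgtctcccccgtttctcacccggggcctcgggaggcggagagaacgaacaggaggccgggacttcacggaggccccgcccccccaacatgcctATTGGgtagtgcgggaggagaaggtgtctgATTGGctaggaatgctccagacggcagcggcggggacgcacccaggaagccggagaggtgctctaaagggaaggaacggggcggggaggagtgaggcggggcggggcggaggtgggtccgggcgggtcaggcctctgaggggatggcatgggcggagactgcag

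The sterol carrier STARD4 (ENSG00000164211; chromosome 5, 111496033 to 111512590, minus strand) was low, at 13.3, 11.8, 10.1 and 8.89 CPM in siCtrl replicates 1 to 4 and 8.92, 10.1, 10.5 and 10.4 CPM in siNAT10. Both siNAT10 libraries of batch 1 were below their controls, and both of batch 2 were above theirs. The log2 fold change was -0.15 (SE 0.15, 95% interval -0.46 to 0.16, edgeR adjusted p 0.68), with -0.40 in batch 1 and 0.13 in batch 2.

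The LXR targets ABCA1 and MYLIP were not called. ABCA1 (ENSG00000165029; chromosome 9, 104781006 to 104928155, minus strand) measured 17.96, 16.1, 18.8 and 20.9 CPM in siCtrl and 14.7, 18.9, 17.6 and 26.2 CPM in siNAT10, with 1 siNAT10 library above and 1 below both controls in each batch. Its log2 fold change was 0.06 with a 95% interval of -0.23 to 0.35 (edgeR adjusted p 0.88). MYLIP (ENSG00000007944; chromosome 6, 16129086 to 16148248, plus strand) measured 9.12, 9.66, 8.76 and 11.6 CPM in siCtrl and 11.8, 9.14, 14.4 and 8.51 CPM in siNAT10. The groups overlapped in both batches, and the log2 fold change was 0.17 (SE 0.17, 95% interval -0.19 to 0.53, edgeR adjusted p 0.69). It was 0.020 without siNAT10 replicate 3 and 0.30 without siNAT10 replicate 4. The ABCA1 window (chr9:104928106-104928405, minus strand) is shown for its LXR element. The strict form of that element, 2 copies of AGGTCA 4 bases apart, was in none of the 8 genes and in 0.0199% of all windows. A form loosened after the ABCA1 letters were known, in capitals below at bases -69 to -54 from the start and read there on the opposite strand, was in 0.094% of windows and in ABCA1 alone of the 8. The E-box in capitals lies at bases -147 to -142.
ABCA1: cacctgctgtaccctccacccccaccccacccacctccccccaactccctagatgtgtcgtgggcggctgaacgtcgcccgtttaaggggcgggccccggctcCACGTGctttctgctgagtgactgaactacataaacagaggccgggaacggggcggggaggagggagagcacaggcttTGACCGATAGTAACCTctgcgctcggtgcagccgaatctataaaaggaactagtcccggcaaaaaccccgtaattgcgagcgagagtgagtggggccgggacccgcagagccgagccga

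**Figure D3:**
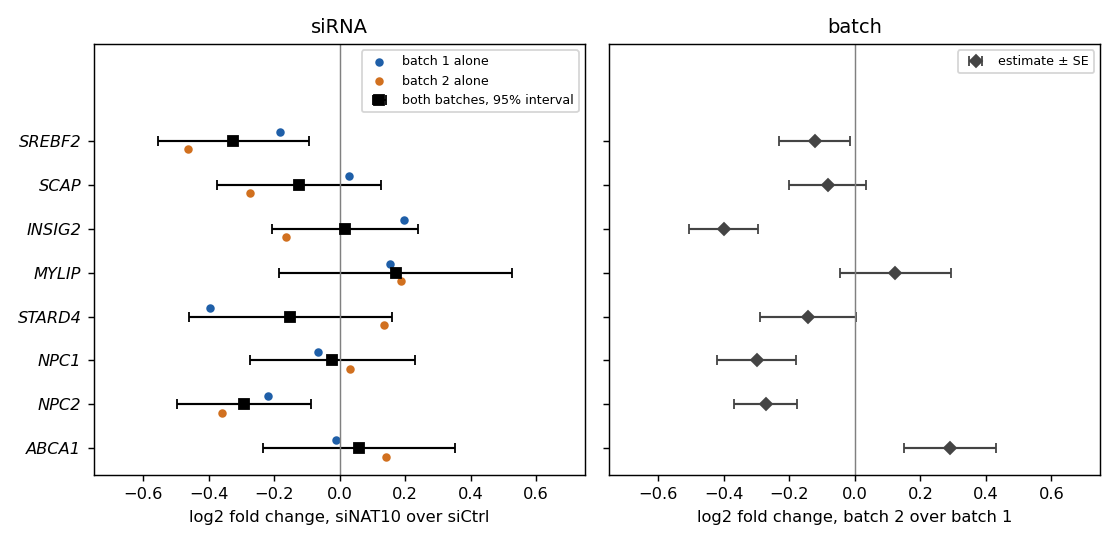
Left, log2 fold change of siNAT10 over siCtrl for each gene, with black squares and 95% intervals from both batches and blue and orange points from batch 1 and batch 2 alone; right, log2 fold change of batch 2 over batch 1 ± standard error. SREBF2 and NPC2 have intervals below 0 on the left, and INSIG2 has the most negative batch value, -0.40.

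The batches were compared next, at a given siRNA, as batch was a term of the fit. INSIG2 was lower in batch 2, with a log2 fold change of -0.40 (SE 0.11, edgeR adjusted p 0.011). Its 4 batch 1 libraries (152.3 to 191.5 CPM) lay above its 4 batch 2 libraries (115.1 to 134.3 CPM). How many of all tested genes were so separated between batches was not counted, so this is a description only. NPC2 was lower in batch 2 by a log2 fold change of -0.27 (SE 0.10, edgeR adjusted p 0.048). These were 2 of 8 members, where 25.3% of all tested genes were called between batches in either direction and 12.2% were called lower in batch 2, and this count is not read further. The INSIG2 call held in each of the 13 alternatives run for this comparison, while that of NPC2 was lost in 9 of them, among them RLE size factors (adjusted p 0.053), no filter on low counts (0.055) and 7 of the 8 fits without 1 library. NPC1, with a log2 fold change of -0.30 and an adjusted p of 0.077, was called without siNAT10 replicate 1 (0.042) or siNAT10 replicate 4 (0.017). The largest batch value above 0 was that of ABCA1, 0.29 (SE 0.14, edgeR adjusted p 0.14).

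Whether the siRNA acted differently in the 2 batches was tested with an interaction term. It was called for 0% of the tested genes and for 0 of 8 members (edgeR), and 3.04% of tested genes and 0 of 8 members had an unadjusted p under 0.05. The members with the lowest unadjusted p were STARD4 (0.072, with an interaction of 0.53 and a standard error of 0.27) and INSIG2 (0.094, with -0.36 and 0.20). The opposite signs of these genes in the 2 batches therefore did not pass the test.

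For the 3 most abundant members the genes with the most similar pattern were sought by Pearson r of batch-centred log2 CPM over the 8 libraries, among 8136 other protein-coding genes with a mean of at least 8 CPM. NPC2 was most like the metallothionein gene MT1E (r = 0.98) and the glucose transporter gene SLC2A3 (r = 0.98). Both were called lower in siNAT10, by log2 fold changes of -0.52 and -0.78 (edgeR adjusted p 0.018 and 0.0013). The siRNA difference was left in the values, so a search on NPC2 favours genes lower in siNAT10, and these calls are no separate result. SCAP was most like the histone deacetylase gene HDAC7 (r = 0.99) and the palmitoyltransferase gene ZDHHC7 (r = 0.98). Their log2 fold changes were -0.30 and -0.09, not called (edgeR adjusted p 0.40 and 0.79). SREBF2 was most like RNF141 (r = 0.99) and GGCX (r = 0.98), the gene of the vitamin K-dependent carboxylase. RNF141 and GGCX both had a log2 fold change of -0.18, not called (edgeR adjusted p 0.44 and 0.41). With 8 points, which share the siRNA difference and depth, and so many genes searched, such values describe the libraries only.

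Other genes of the pathway were examined in 5 lists holding 95 genes, of which 81 passed the filter and 2 were called, LAMP1 and NR1H4, where 2.28% of all tested genes were called, so the count is not read further. Neither is one of the 8 members. An unadjusted p under 0.05 was found for 23 of the 81, 12 higher and 11 lower, and the counts by list below stand beside 15.7% of all tested genes, 7.46% higher and 8.24% lower. With the replicate number as a block, which stands in for batch, 5 were called: MBTPS2, DAB2, LAMP1, NR1H4 and MSMO1. That fit called 454 of all 13840 tested genes, more than the main fit, so its 5 are not set beside 2.28%. The median log2 fold change of the 81 genes was -0.02, with 35 above 0 and 46 below.

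In the list of SREBP processing and its control, 0 of 17 tested genes were called (edgeR) and 4 had an unadjusted p under 0.05, all higher in siNAT10 (7.46% of all tested genes were), with a median of 0.08 and 10 of 17 above 0. MBTPS2, the Golgi protease that makes the second cut in SREBP, measured 12.5, 12.5, 10.6 and 7.44 CPM in siCtrl and 14.7, 15.4, 18.2 and 17.0 CPM in siNAT10, every siNAT10 library above all 4 controls. The share of all tested genes so separated was not counted. By the looser rule within batch, 14.7% had every siNAT10 library beyond both controls, counting both directions. The log2 fold change of MBTPS2 was 0.59 (SE 0.16, edgeR adjusted p 0.061). Batch 1 alone gave 0.27 and batch 2 alone 0.96. Its interaction of batch and siRNA had an unadjusted p of 0.024 (edgeR) and was not called. In the main fit MBTPS2 was not called. DESeq2, the block and the fit without a filter called MBTPS2. MBTPS1, the protease of the first cut, had 0.27 (adjusted p 0.19), and SEC24A, a coat protein of vesicles leaving the endoplasmic reticulum, 0.32 (adjusted p 0.19).

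Lipoprotein receptors and sorting genes had 0 of 17 called (edgeR) and 7 with an unadjusted p under 0.05, 6 of them higher, against 15.7% and 7.46% of all tested genes, with a median of 0.07. DAB2, an endocytic adaptor, had a log2 fold change of 0.67 (adjusted p 0.16), VLDLR, a receptor of the LDL receptor family, 0.36 (0.21) and SCARB1, the receptor for high-density lipoprotein, -0.31 (0.20). DAB2 was low, with means of 5.40 CPM in siCtrl and 8.43 CPM in siNAT10 and 75 to 213 counts in a library. Its groups overlapped in both batches.

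In the list of lysosomal release and membrane transport 1 of 18 tested genes was called and 5 had an unadjusted p under 0.05, 1 higher and 4 lower, with a median of -0.0016. LAMP1 (ENSG00000185896; chromosome 13, 113297239 to 113323672), a main glycoprotein of the lysosomal membrane, measured 616.2, 660.4, 709.3 and 801.0 CPM in siCtrl replicates 1 to 4 and 450.4, 325.2, 564.9 and 465.8 CPM in siNAT10. Every siNAT10 library was below all 4 controls, and the share of all tested genes so separated was not counted. By the looser rule within batch, 7.9% of all tested genes had every siNAT10 library below both controls. LAMP1 fell to 64.4% of siCtrl, a log2 fold change of -0.64 (SE 0.12, edgeR adjusted p 0.011). Its companion LAMP2 measured 113.6 CPM in siCtrl and 126.0 CPM in siNAT10 and was not called. GRAMD1A, a carrier of sterol from the plasma membrane to the endoplasmic reticulum, had a log2 fold change of -0.40 (SE 0.11, edgeR adjusted p 0.078), and DESeq2 and the fit without a filter called it.

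Among LXR receptors, partners and targets 1 of 12 tested genes was called, the same 1 had an unadjusted p under 0.05, and the median was -0.02. It was NR1H4 (ENSG00000012504; chromosome 12, 100473708 to 100564414), which encodes the bile acid receptor FXR rather than an LXR. It measured 15.7, 15.4, 10.2 and 10.8 CPM in siCtrl and 22.5, 25.0, 20.2 and 15.1 CPM in siNAT10. Both siNAT10 libraries of each batch lay above their controls, though replicate 4 was below the highest batch 1 control. Of all tested genes 14.7% were separated within both batches, counting both directions. NR1H4 rose to 160.2% of siCtrl, a log2 fold change of 0.68 (SE 0.12, edgeR adjusted p 0.011). The LXR genes themselves, NR1H3 and NR1H2, had log2 fold changes of 0.0044 and 0.17 and were not called. The calls of LAMP1 and NR1H4 were lost without siNAT10 replicate 2 (adjusted p 0.062 and 0.057), without the batch term (0.27 and 0.34) and in batch 2 alone (0.52 and 0.48), and that of NR1H4 also in batch 1 alone (0.054).

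Enzymes of cholesterol synthesis were listed together as SREBP2 targets, and whether SREBP2 acts on each of them was not tested. In this list 0 of 17 were called (edgeR), 16 of 17 lay below 0 and the median was -0.20. An unadjusted p under 0.05 was found for 6, all lower. Of all 13840 tested genes 6968 lay below 0, and 8.24% were lower with an unadjusted p under 0.05. The median was -0.32 without siCtrl replicate 4 and -0.14 without siCtrl replicate 3. The lowest p were those of MSMO1, a sterol methyl oxidase, with a log2 fold change of -0.44 (adjusted p 0.056), DHCR7, the last enzyme of one branch, with -0.40 (0.079), and SQLE, squalene epoxidase, with -0.40 (0.11). DESeq2 called MSMO1 and DHCR7. Earlier results of these data had shown cholesterol synthesis genes lower as a set, so this direction is no independent evidence. LSS, listed at 0 counts in all libraries, CYP51A1, with at most 1 count, and NSDHL, with at most 12, did not pass the filter. With the annotation and counting rules not given in the sources used here, such counts do not show that these RNAs were absent.

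**Figure D4:**
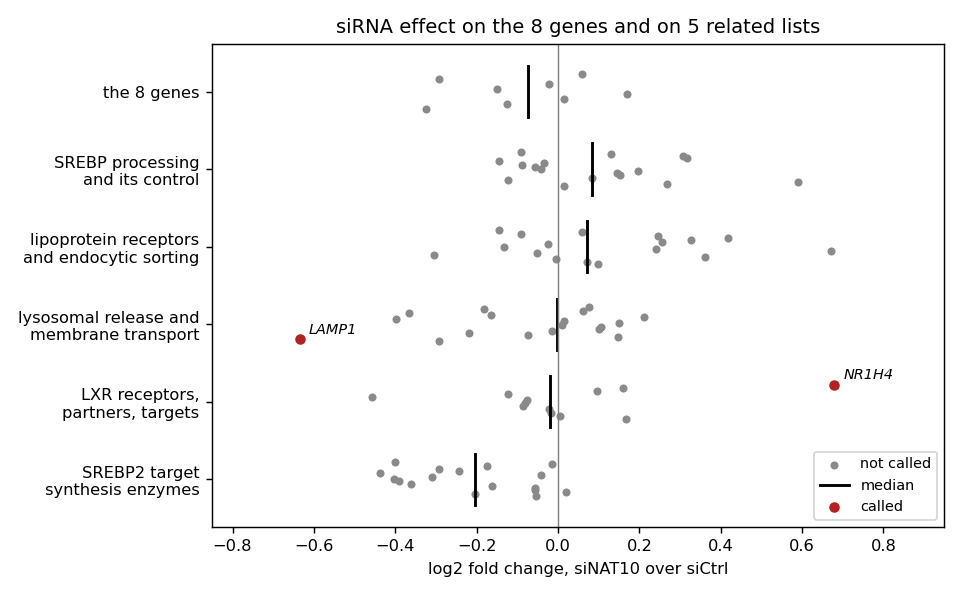
Log2 fold change of siNAT10 over siCtrl for the 8 genes and for the tested genes of the 5 lists, 1 point per gene, spread vertically only to separate them; black bars mark medians and red points the called genes. LAMP1 (-0.64) and NR1H4 (0.68) are the called genes, and 16 of 17 synthesis enzymes lie below 0.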

How the data were processed

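The deposited table holds whole-number counts per gene and library, which the authors made with STAR 2.7.9a (GRCh38) and featureCounts, per the labels. Trim Galore 0.6.10 and cutadapt 3.5 also appear in the submitters' processing notes. Annotation, strand setting and multi-mapping rules are not given in the sources used here, and the labels call the QuantSeq kit forward in one place and reverse in another. Columns were matched through the sample descriptions and symbols through GENCODE 44 (61458 of 86369 identifiers).

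The tests used edgeR 4.0.16 (R 4.3.3): filterByExpr with a minimum count of 10, TMM scaling, and the quasi-likelihood F test with terms for batch and siRNA, adjusted over 13840 genes. Standard errors came from the F statistic. The interaction of batch and siRNA was fitted separately. Alternatives were no batch term, a replicate block, DESeq2 1.42.0, limma-voom (limma 3.58.1), RLE size factors, library size alone, other filters, thinning, each batch alone and each library left out. The script was tested on simulated data. The members and lists were chosen with earlier results of these data known. Named genes were the members, NAT10, the called genes of each list (or up to 3 with the lowest unadjusted p), and the genes most like the 3 most abundant members. SREBF1, LAMP2, GRAMD1A, ALB, AFP, APOA1, FGB, HNF4A, NR1H2, NR1H3, TF, LSS, CYP51A1 and NSDHL were added after their values were seen.

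Replicate numbers are nested in the labelled batches. Same-numbered libraries deviated together from their group means (correlations 0.39, 0.38, 0.45 and 0.36), but with batch removed the correlations were -0.06 (batch 1) and 0.17 (batch 2). What the numbers share was thus taken to be the batch, which is a term of the fit, and the block on replicate number is an alternative only. No 2 libraries agreed within counting noise (chi-square per degree of freedom of at least 15.2 within a group and batch).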

Additional observations from a re-analysis of the deposited data

How the results depend on the processing

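Of the 8 members, 0 were called in 18 of 19 alternatives, and 1, NPC2, with DESeq2; SREBF2, NPC2 and MYLIP kept their direction in all 19, although MYLIP ran from 0.020 to 0.30 with 1 library left out, SCAP from -0.22 to -0.023 and STARD4 from -0.23 to -0.058. Against 315 in the main fit, called genes numbered 15 without the batch term, 530 with DESeq2 and 595 without a filter. The fits with DESeq2 and without a filter covered 27941 genes. Each batch alone (2 against 2) gave 173 in batch 1 and 0 in batch 2, and leaving 1 library out gave 75 to 286. The replicate block gave 454. Listed pathway genes called numbered 0 without the batch term and in batch 2, 1 in batch 1, 5 with the replicate block, 6 with DESeq2, 7 without a filter and 0 to 3 with 1 library left out, against 2. NAT10 was not called in batch 2 alone (-1.58, edgeR adjusted p 0.086).

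Signs of log2 fold changes near 0 turned. NPC1 was 0.023 with library size alone, 0.0010 after thinning, 0.032 in batch 2 and -0.12 to 0.062 with 1 library left out. SCAP was 0.028 and ABCA1 -0.011 in batch 1, and INSIG2 was -0.16 and STARD4 0.13 in batch 2. With 1 library left out INSIG2 ran from -0.067 to 0.074 and ABCA1 from -0.071 to 0.16. The interaction of MYLIP was -0.028 after thinning and -0.41 to 0.34 with 1 library left out, that of NPC1 -0.18 to 0.31 and that of ABCA1 -0.18 to 0.41. Interaction calls numbered 15 without a filter and 0 to 2 with 1 library left out. Members called between batches numbered 1 with RLE, 1 without a filter and 1 to 2 with 1 library left out, where SCAP ran from -0.16 to 0.017 and MYLIP from -0.034 to 0.25. With library size alone the medians of the lysosomal and LXR lists were above 0 (0.038 and 0.019), as was that over all genes (0.037). Depth limits MYLIP and STARD4 most. The cause of these shifts was not tested.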
